A study of Mus musculus with 23 samples.

Results

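The genes described here are those of the mouse MHC class II antigen presentation machinery that were chosen by name: the classical chains H2-Aa, H2-Ab1 and H2-Eb1, the H2-DM chains H2-DMa, H2-DMb1 and H2-DMb2, the H2-DO chains H2-Oa and H2-Ob, and the transactivator Ciita. All 9 had a probe set, 1 each, among the 19505 genes with a symbol on the array. They were measured in 23 samples of microglia, the resident macrophages of the brain, taken from cortex plus hippocampus of mice and sorted as CD45+ and CD11b+ cells.

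The samples formed 6 groups. Young WT (C57BL6, 3 months, n = 4) and aged WT (C57BL6, 12 months, n = 4) were the reference groups. Young APP (APPswlnd, 3 months, n = 3) and young TAU (P301S (PS19), 3 months, n = 4) were labelled as preceding pathology. Aged gated APP (APPswlnd, 12 months, n = 4) and aged gated TAU (P301S (PS19), n = 4) came from pathologic mice and held only microglia called active, isolated by surface Clec7a, a C-type lectin receptor. The age of the last group is given as 9 months in its age field and as 12 months in its titles. APPswlnd carries human amyloid precursor protein with familial Alzheimer mutations, and PS19 carries human P301S tau. No gate on Clec7a is named for the other 4 groups, so strain, pathology and gate (and, for TAU, age) differ together between a gated group and aged WT and cannot be told apart. The labels give no transgene promoter, sex, H2 haplotype of the transgenic lines or number of mice per sample. They call the replicates biological without saying that each is a separate mouse, so p-values measure the spread between these samples.

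MHC class II molecules are pairs of an alpha and a beta chain that carry peptides from endosomes to the cell surface, where CD4+ T cells read them. H2-Aa and H2-Ab1 encode the chains of I-A, and H2-Eb1 the beta chain of I-E, whose alpha chain comes from H2-Ea, a gene that is defective in C57BL/6 mice. H2-DM, a pair of H2-DMa with an H2-DMb chain, stays in endosomes and exchanges the invariant chain remnant CLIP for peptide. H2-DO, made of H2-Oa and H2-Ob, binds H2-DM and restrains it, and is best known from B cells. Ciita is the coactivator that class II promoters depend on, together with the RFX, CREB and NF-Y factors that sit on their X and Y boxes. Resting microglia are known for low class II expression.

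The promoters were read for sequence that some of these genes share. RefSeq promoters (GRCm38.p6, 250 bases before to 50 after the start) were at hand for 7 of the 9 genes, not for H2-Ab1 and Ciita. They were searched on both strands for TGATTGG, the core of the Y box, and for an X box form, AGNAAC followed by any 2 bases and ATG. These letters were chosen from textbook boxes and after the class II promoters had been read. Their shares are therefore a description and not a test. In the windows shown the matches did not overlap. TGATTGG stood in 6 of the 7 genes with an entry and in 7.82% of all 32851 promoters of that length. H2-DMa had it in neither of its 2 entries. The X form was found in H2-Eb1, H2-DMb1 and H2-Ob, and in 0.895% of all promoters. Both motifs together occurred in 24 promoters (0.0731%), among them the H2-Eb2 promoter. Windows of 63 bases are printed 5′ to 3′ for a pair of classical chains, a DM chain, a DO chain, and H2-Eb2, a class II gene without measurable signal. Capitals mark the matches, the X form first where present and the Y core last.

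H2-Eb1: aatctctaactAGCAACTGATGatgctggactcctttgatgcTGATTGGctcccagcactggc
H2-Aa: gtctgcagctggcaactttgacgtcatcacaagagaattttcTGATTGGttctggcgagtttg
H2-DMb1: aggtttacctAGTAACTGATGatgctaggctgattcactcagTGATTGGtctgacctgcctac
H2-Ob: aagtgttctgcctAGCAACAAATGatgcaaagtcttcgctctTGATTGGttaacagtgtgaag
H2-Eb2: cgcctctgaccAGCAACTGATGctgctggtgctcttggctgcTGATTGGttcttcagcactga

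The H2-Eb1 window lies at chr17:34305764-34305826 and the H2-Aa window at chr17:34287853-34287915, the former on the plus and the latter on the minus strand. The H2-DMb1 window is chr17:34153086-34153148, the H2-Ob window chr17:34238804-34238866 and the H2-Eb2 window chr17:34325531-34325593, all on the plus strand. In H2-Eb1, H2-DMb1, H2-Ob and H2-Eb2 the matches were 20, 21, 18 and 20 bases apart. A match is a description of the letters, not a site or a cause. No match says only that these letters are not in the window.

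All values are log2 signals, so a difference of 1 is a doubling. Array medians ran from 6.87 to 7.13. The level at which a probe set cannot be told from background was set, per group, at the 95th percentile of 1464 probe sets for chemosensory receptors, and lay between 7.72 and 8.11. Where the lower group's mean was at or under its level, the fold is given as "at least" the higher group's mean over that level. Such a bound is taken from group means and leaves out their sampling error. Of the 9 measured microglia markers, 9 exceeded the background level in every group, P2ry12 and Tmem119 among them. Aged WT replicate 3 lay apart from its group, with a median correlation of 0.941 to the others, against 0.966 to 0.986 for the other 22 samples. Aged WT replicates 2 and 4 had stood apart in an earlier look at these arrays, and results against aged WT were also computed without both. By the correlation given here they did not stand apart (0.974 and 0.978). Leaving them out keeps replicates 1 and 3, which held the highest aged WT values of H2-DMa, H2-DMb1 and H2-Oa. In these bulk samples, fewer cells with a transcript and less of it per cell cannot be told apart.

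In the 15 ungated samples the classical chains were low. H2-Ab1, the I-A beta chain, was at 7.52 to 9.25, and its group mean was at or under background in young APP, young TAU and aged WT. H2-Aa was at 7.98 to 9.73, and H2-Eb1 at 7.57 to 9.85. The highest value of each chain came from a WT replicate 3, young WT for H2-Aa (9.73), H2-Ab1 (9.25) and H2-Eb1 (9.85). The same number in aged WT held the highest aged WT values of H2-Aa (9.11), H2-Ab1 (8.65) and H2-Eb1 (9.79). The H2-DM and H2-DO probe sets were above background in every ungated sample: H2-DMa at 12.55 to 14.26, H2-DMb1 at 11.88 to 13.56, H2-DMb2 at 9.58 to 10.49, H2-Oa at 9.92 to 12.01 and H2-Ob at 8.05 to 9.16. The Ciita probe set was under background in all 6 groups, with sample values from 6.52 to 7.7. It therefore gives no level and no fold.

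**Figure D1:**
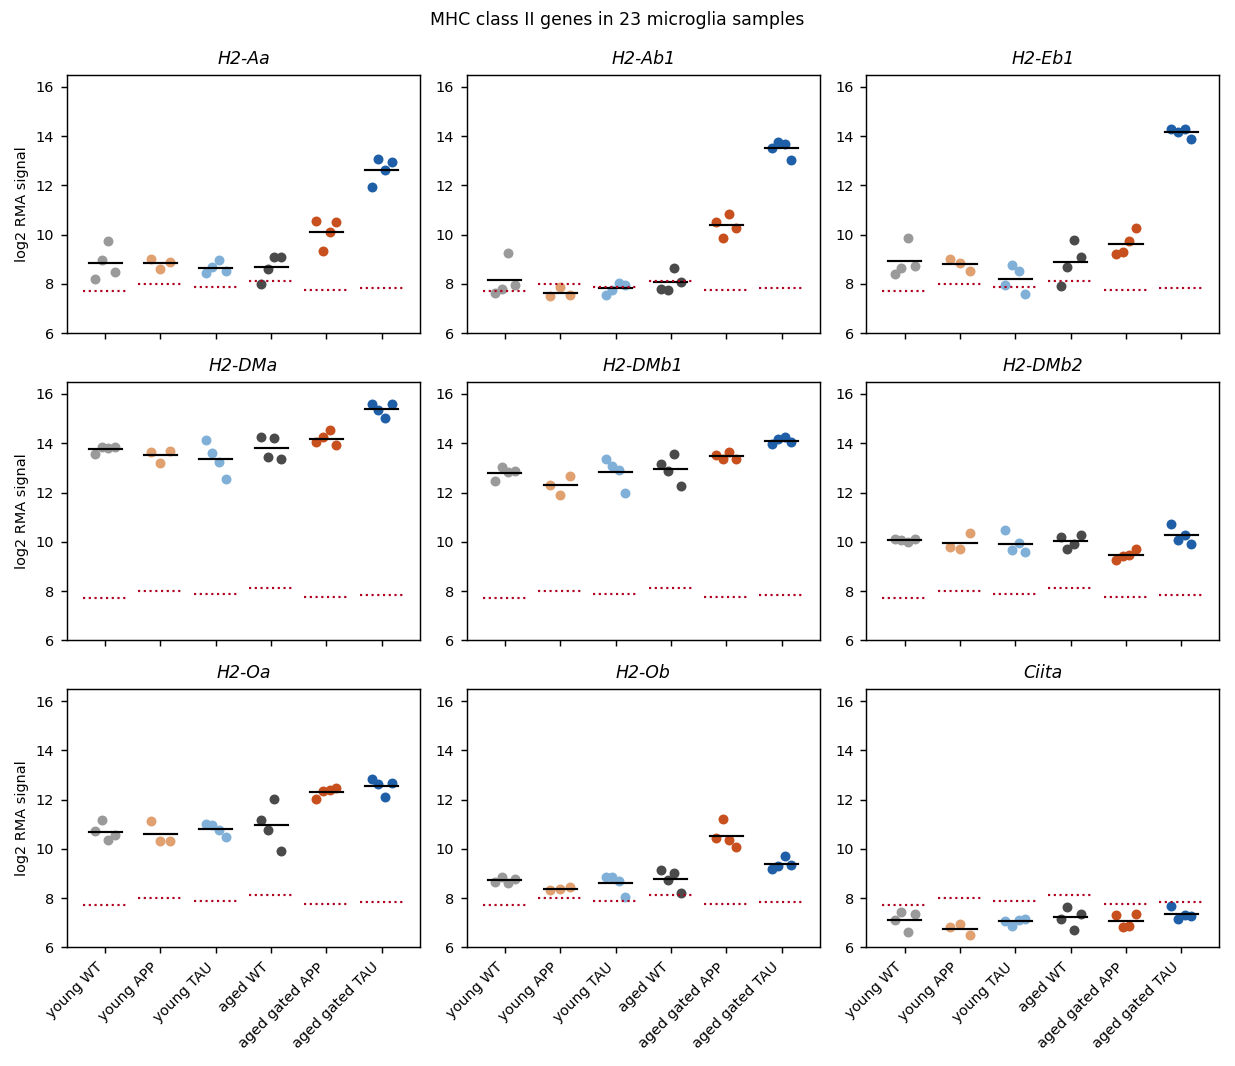
Each panel plots 1 gene: log2 signal on the y axis, the 6 groups on the x axis, a point per sample, a black line at the group mean and a dotted red line at that group's background level. The 4 aged gated TAU samples stand at 13.05 to 13.78 for H2-Ab1 and 13.88 to 14.28 for H2-Eb1, above all other samples, while H2-Ob is highest in aged gated APP (10.06 to 11.21) and Ciita stays under background.

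No member passed the test with WT age or in young transgenic mice. Between aged and young WT 0 of the 9 genes passed the test (limma, Benjamini-Hochberg adjusted p under 0.05 over all 22203 probe sets), where 0.036% of all probe sets did. The smallest adjusted p of a member was 0.813, for H2-Oa, at 0.27 on the log2 scale. Young APP against young WT gave 0 of 9, against 0% of all probe sets, and young TAU against young WT gave 0 of 9, again against 0%. In those 3 comparisons 0 members had an unadjusted p under 0.05, while 1987, 648 and 922 of all probe sets had. The widest 95% interval among members was for H2-Eb1 in young APP against young WT, from -0.9 to 0.66.

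In aged gated APP microglia, both I-A chains and both H2-DO chains were called higher than in aged WT, and no member was called lower. H2-Ab1 was at least 4.82-fold higher, H2-Ob 3.32-fold, H2-Aa 2.7-fold and H2-Oa 2.55-fold. The H2-DM chains and H2-Eb1 did not pass the test. Thus 4 of 9 members were called higher, where 5.6% of all probe sets were, and 0 of 9 lower, where 3.48% were. The median of the 9 log2 fold changes was 0.76, against -0.06 over all probe sets.

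Of the classical chains, H2-Aa was at 7.98, 8.59, 9.11 and 9.08 in aged WT and at 10.57, 9.33, 10.09 and 10.5 in aged gated APP. The groups did not overlap, and replicate 2 was the lowest gated APP sample. The log2 fold change was 1.43 (SE 0.32, limma adjusted p = 0.00492). H2-Ab1 rose from 7.78, 7.77, 8.65 and 8.09 to 10.53, 9.86, 10.83 and 10.28. No gated sample came near the aged WT ones, of which 1 of 4 was above background, so the fitted log2 difference of 2.3 (SE 0.29, adjusted p = 5.62e-06, limma) gives no exact fold and only the bound above is printed as one. H2-Eb1 was at 7.92, 8.69, 9.79 and 9.08 in aged WT and at 9.2, 9.31, 9.74 and 10.26 in aged gated APP. These ranges overlapped, and the difference of 0.76 (95% interval 0.04 to 1.48) had an adjusted p of 0.206 by limma. It passed only without aged WT replicate 3 (1.06, adjusted p = 0.0419), among all the alternatives run.

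Both H2-DO chains moved in aged gated APP. H2-Ob, the beta chain, was at 9.16, 8.74, 9.04 and 8.23 in aged WT and at 10.45, 11.21, 10.37 and 10.06 in aged gated APP. All 4 gated samples were above all 15 ungated ones, and the log2 fold change was 1.73 (SE 0.23, limma adjusted p = 1.46e-05). H2-Oa, its alpha partner, was at 11.19, 10.77, 12.01 and 9.92 in aged WT and at 12.04, 12.36, 12.41 and 12.48 in aged gated APP. Aged WT spread widely here, and its replicate 3 reached nearly to the lowest gated sample. The log2 fold change of H2-Oa was 1.35 (SE 0.31, limma adjusted p = 0.00498). It was 0.72 with an adjusted p of 0.178 without aged WT replicates 2 and 4, and the call was also lost when only the groups compared entered the fit.

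None of the H2-DM chains passed the test in aged gated APP. H2-DMa was at 14.26, 13.46, 14.2 and 13.36 in aged WT and at 14.06, 14.24, 14.54 and 13.91 in aged gated APP, a difference of 0.37 (95% interval -0.18 to 0.92, limma adjusted p = 0.453) that turned to -0.04 without aged WT replicates 2 and 4. H2-DMb1 differed by 0.52 (-0.03 to 1.06, adjusted p = 0.263). H2-DMb2 was at 10.2, 9.69, 9.9 and 10.28 in aged WT and at 9.24, 9.42, 9.45 and 9.7 in aged gated APP, so that 3 of 4 gated samples lay below all of aged WT. Its difference of -0.56 (-1 to -0.13, limma adjusted p = 0.102) did not pass. H2-DMb1 and H2-DMb2 are near-identical copies, and how far each probe set reads the other gene is not known, so their separate values are uncertain. Over the array 6.72% of probe sets had every gated APP sample above every aged WT sample, as did 4 of the 9 members, the 4 that were called.

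In aged gated TAU microglia the classical chains were far higher than in aged WT, at least 42.2-fold for H2-Ab1, 39-fold for H2-Eb1 and 15.5-fold for H2-Aa. H2-DMa (2.99-fold), H2-DMb1 (2.21-fold) and H2-Oa (3.01-fold) also rose. H2-Ob, H2-DMb2 and Ciita did not pass. Thus 6 of 9 members were called higher, against 5.09% of all probe sets, and 0 of 9 lower, against 3.67%. The median log2 fold change of the 9 was 1.58, against -0.05 over all probe sets. Both gated groups are set against the same aged WT samples, so these calls and the APP ones are not independent.

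H2-Aa was at 11.95, 13.07, 12.61 and 12.95 in the 4 gated TAU samples. Each lay above every other sample of the series, and the log2 fold change was 3.95 (SE 0.32, limma adjusted p = 1.38e-08). H2-Ab1 was at 13.52, 13.78, 13.67 and 13.05, a rise of 5.43 (SE 0.29, adjusted p = 7.94e-12, limma). H2-Eb1 was at 14.28, 14.18, 14.28 and 13.88, the tightest of the 3 chains with an SD of 0.19 (n = 4). Its log2 fold change was 5.29 (SE 0.35, limma adjusted p = 3.6e-10). Under every alternative run, these 3 calls were kept, with values of 3.72 to 4.19, 5.29 to 5.62 and 4.97 to 5.59.

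The DM and DO chains moved less in aged gated TAU. H2-DMa was at 15.6, 15.37, 15.03 and 15.6, above all ungated samples, and rose by 1.58 (SE 0.26, limma adjusted p = 0.000345). H2-DMb1 was at 13.95, 14.18, 14.25 and 14.04 and rose by 1.14 (SE 0.26, adjusted p = 0.00677). H2-Oa was at 12.82, 12.64, 12.1 and 12.69 and rose by 1.59 (SE 0.31, adjusted p = 0.00143). Without aged WT replicates 2 and 4 the calls for H2-DMb1 (0.76, adjusted p = 0.149) and H2-Oa (0.96, adjusted p = 0.0524) were lost. H2-Ob was at 9.17, 9.3, 9.72 and 9.35, above all 4 aged WT samples but by only 0.59 (95% interval 0.11 to 1.07, limma adjusted p = 0.123). It passed under quantile normalization and with Y-linked expression as a covariate, where its adjusted p reached 0.0313 at the lowest. H2-DMb2 differed by 0.24 (-0.19 to 0.67, adjusted p = 0.546). Groups did not overlap for 7 of 9 members, the 6 called and H2-Ob, against 6.38% of all probe sets that were higher in that way.

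**Figure D2:**
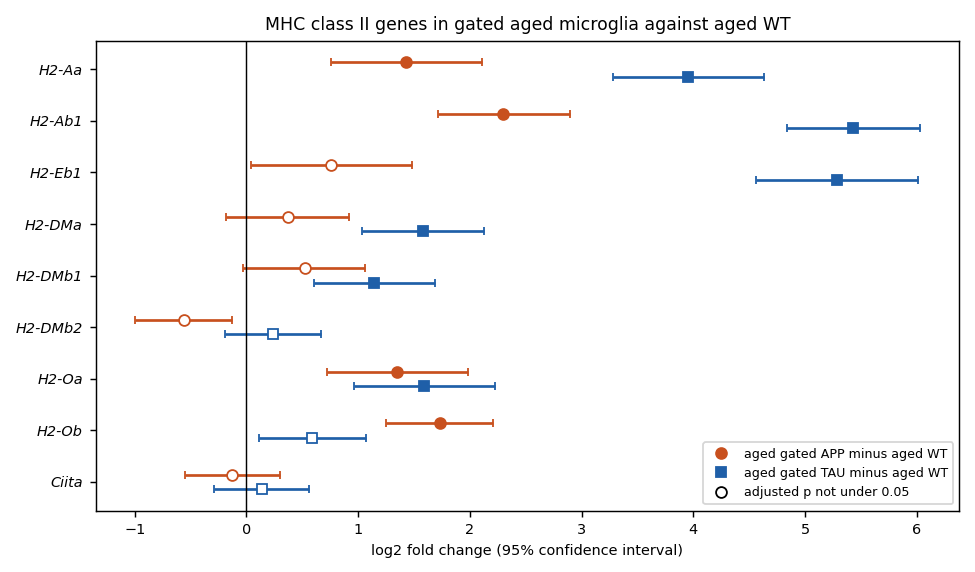
Log2 fold change against aged WT (x axis) of the 9 genes (y axis), with circles for aged gated APP, squares for aged gated TAU, bars for the 95% confidence interval and open symbols where the adjusted p was not under 0.05. The classical chains of TAU sit at 3.95 to 5.43, those of APP at 0.76 to 2.3, while H2-Ob is further right in APP (1.73) than in TAU (0.59).

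Set against each other, the gated groups differed in both directions within the class II genes. H2-Eb1 was 23.1-fold, H2-Ab1 8.75-fold, H2-Aa 5.75-fold and H2-DMa 2.32-fold lower in APP than in TAU. H2-Ob was 2.2-fold higher in APP. Thus 4 of 9 members were called lower, where 0.302% of all probe sets were, and 1 of 9 higher, where 0.626% were. The groups did not overlap for 7 members: 6 were lower in APP (2.14% of all probe sets) and H2-Ob was higher (2.56%). Ordered by how far TAU exceeded APP, H2-Eb1 ranked 1, H2-Ab1 4, H2-Aa 10 and H2-DMa 57 among the 22203 probe sets, and H2-Ob ranked 130 from the other end.

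The log2 difference of APP minus TAU was -4.53 for H2-Eb1 (SE 0.35, limma adjusted p = 3.48e-08), -3.13 for H2-Ab1 (SE 0.29, adjusted p = 4.82e-07) and -2.52 for H2-Aa (SE 0.32, adjusted p = 5.46e-05). These 3 calls held under every alternative run. For H2-DMa the difference was -1.21 (SE 0.26, limma adjusted p = 0.0213), and for H2-Ob it was 1.14 (SE 0.23, adjusted p = 0.0111). Both calls were close to the threshold. The one for H2-DMa was lost under 7 of 16 alternatives, with an adjusted p of up to 0.0852, namely with each array centred on its median and without replicate 1, 2 or 4 of either gated group. That for H2-Ob was lost under 3 of 16, with an adjusted p of up to 0.0993: without gated APP replicate 2, its highest sample, without gated TAU replicate 1, its lowest, and with only the groups compared. With either of these samples left out, 3 members remained called, the classical chains.

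The other members did not pass between the gated groups. H2-DMb1 differed by -0.63 (95% interval -1.18 to -0.08, limma adjusted p = 0.423). For H2-DMb2 the difference was -0.81 (-1.24 to -0.37, adjusted p = 0.0744), and it passed under quantile normalization and with dim probe sets left out, at 0.0332 at the lowest. H2-Oa differed by -0.24 (-0.87 to 0.39, adjusted p = 0.922), its samples overlapping. The 2 H2-DO chains thus had unlike values: H2-Oa was 12.32 ± 0.19 (SD, n = 4) in APP and 12.56 ± 0.32 (n = 4) in TAU, and H2-Ob was 10.52 ± 0.49 in APP and 9.38 ± 0.24 in TAU. Whether the difference for H2-Ob itself differs from that for H2-Oa was not tested.

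The contrast of classical against DM and DO chains could also be read sample by sample, as the mean change of each set from the aged WT mean. In the 4 gated APP samples the classical set was 0.96 to 1.8 higher, the DM set 0.01 to 0.27 and the DO set 1.36 to 1.9. In the 4 gated TAU samples the classical set was 4.71 to 5.13 higher, the DM set 0.92 to 1.16 and the DO set 1.03 to 1.14. The DO set was therefore lower in every TAU sample than in every APP sample, while both other sets were higher in TAU. Of the DO chains only H2-Ob had a lower mean in TAU, and H2-Oa was at 12.56 there and 12.32 in APP. The DM mean in APP joins differences of 0.37 (H2-DMa), 0.52 (H2-DMb1) and -0.56 (H2-DMb2), none of them called. Gated APP replicate 2 had the smallest classical change (0.96) and the largest DO change (1.9).

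Each transgenic line was also compared with its own young samples. In aged gated APP, 5 of 9 members were higher than in young APP, against 6.19% of all probe sets: H2-Ob by 2.14 on the log2 scale, H2-Oa by 1.73, H2-Aa by 1.29 and H2-DMb1 by 1.18, with H2-Ab1 at least 5.2-fold higher. Without young APP replicate 2 the count was 3 (H2-Ab1, H2-Oa and H2-Ob), while over the array the probe sets called higher went from 1375 to 934. In aged gated TAU, 7 of 9 were higher than in young TAU, against 6.67%. These were H2-Eb1 by 5.95, H2-Aa by 3.99, H2-DMa by 2.02, H2-Oa by 1.75, H2-DMb1 by 1.27 and H2-Ob by 0.77, and H2-Ab1, at least 49.2-fold higher. The bounds stand for H2-Ab1 because its mean was under background in young APP and young TAU.

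The change from young to aged gated samples was then set against the change from young to aged WT, in a test of the difference of the changes. In APP it exceeded the WT change for H2-Ab1 by 2.83 (SE 0.42, limma adjusted p = 0.000176) and for H2-Ob by 2.07 (SE 0.34, adjusted p = 0.000501). These were 2 of 9 members, against 2.82% of all probe sets. With array weights they were 4 of 9, and the probe sets called higher over the array then rose from 627 to 987. In TAU it exceeded the WT change for H2-Eb1 by 5.99 (SE 0.49, limma adjusted p = 4.05e-08), for H2-Ab1 by 5.78 (SE 0.41, adjusted p = 2.72e-09), for H2-Aa by 4.14 (SE 0.46, adjusted p = 3.93e-06) and for H2-DMa by 1.97 (SE 0.37, adjusted p = 0.00299). These were 4 of 9, against 2.6%. H2-Ab1 was near background on the ungated side, so its values here are fitted differences that give no exact fold. In both lines the gate lies only on the aged side, so this test does not separate age from gate.

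Within groups, the classical chains varied together more than they did with the DM and DO chains. Each sample's deviation from its group mean was correlated over the 23 samples, which share array and normalization, and the values are a description. The 3 pairs of classical chains had r of 0.61 to 0.64. Among the DM and DO chains the highest values were 0.8 for H2-DMa with H2-DMb1, 0.64 for H2-DMb1 with H2-Ob and 0.62 for H2-DMa with H2-Oa. The 10 such pairs ran from -0.03 to 0.8, the lowest being H2-DMb2 with H2-Oa. The 15 pairs of a classical with a DM or DO chain ran from -0.36 (H2-Aa with H2-Ob) to 0.23 (H2-Eb1 with H2-DMb1). Without the 2 samples farthest from the median of the first gene of a pair, the classical pairs were at 0.39 to 0.51 and the mixed pairs at -0.38 to 0.37. The 10 DM and DO pairs then ran from -0.2 to 0.68, so these chains did not vary as 1 set. Among them H2-DMa with H2-DMb1 was at 0.66, H2-DMb1 with H2-Ob at 0.37, and H2-Oa with H2-Ob went from 0.38 to 0.1.

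**Figure D3:**
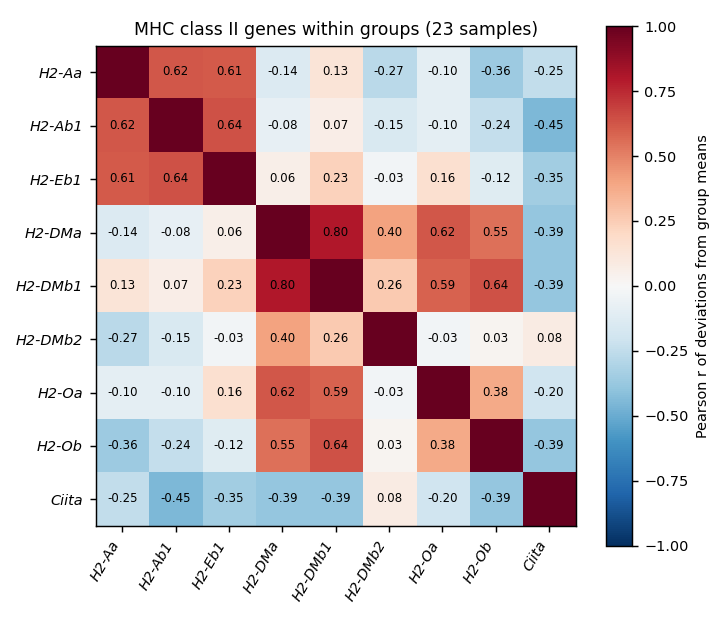
Pearson r (colour scale from -1 to 1, value printed in each cell) between the deviations of 9 genes from their group means over 23 samples. The classical chains form a red block at 0.61 to 0.64, H2-DMa with H2-DMb1 reaches 0.8, and the cells between classical and DM or DO chains lie between -0.36 and 0.23.

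Other genes were ranked by the same within-group correlation with each classical chain, among 7858 probe sets above background in some group. For H2-Ab1 the top gene was Acod1 (r = 0.71), which encodes the enzyme that makes itaconate in activated macrophages. Acod1 had group means of 5.45 to 6.28 in the ungated groups, 7.44 in aged gated APP and 9.38 in aged gated TAU. All but the last were under background, so its r rests mostly on values at background. It is also the highest of 7858 correlations and was not tested. Next for H2-Ab1 came Ctbp2, Lxn, Gamt and Nrgn. For H2-Aa the 5 leading genes were Orc6 (0.66), Zfp114, Nid2, Dcstamp and Lca5 (0.61), and for H2-Eb1 they were Chst11 (0.73), Atp5d, Sema6d, Hnrnpl and Khdrbs1 (0.67). The group means of most of these did not follow the chains. Nid2, for instance, had a mean of 6.55 in gated APP, 6.57 in gated TAU and 7.67 in aged WT.

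The rest of the pathway was followed with 7 lists of 45 genes, of which 41 had a probe set (42 probe sets in all). Ctsd, H2-Ea and Cd74 (the invariant chain) were not analysed here. In aged gated APP 9 of the 42 probe sets were higher and 3 lower than in aged WT, where 5.6% and 3.48% of all probe sets were. In aged gated TAU 13 were higher and 4 lower, where 5.09% and 3.67% of all were. Between the gated groups 1 was higher in APP (Ctsl) and 1 lower (Lag3), where 0.626% and 0.302% of all probe sets were. No probe set of the lists was called between aged and young WT, or in young APP or young TAU against young WT. The median log2 fold change of the 42 was 0.04 in APP and 0.16 in TAU against aged WT (-0.06 and -0.05 over all probe sets), and 0 between the gated groups. The lists were described by these counts and not tested as sets.

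Of 7 measured factors that act at class II promoters, 0 were called in aged gated APP, where 5.6% of all probe sets were higher and 3.48% lower. In aged gated TAU 1 was called, lower, where 3.67% of all probe sets were. This was Nfyb, an NF-Y subunit, which fell by 0.84 on the log2 scale (SE 0.23, limma adjusted p = 0.0215), with the means of TAU (7.14) and aged WT (7.98) both under background. Rfx5, the large RFX subunit, differed by -0.28 in APP and 0.16 in TAU, with adjusted p of 0.586 and 0.783, and its means there (7.19 and 7.62) and in aged WT (7.47) were under background. Of the 9 measured genes on the interferon gamma route, the classical inducer of Ciita, 1 was called higher in each gated group, a share near that of all probe sets (5.6% in APP and 5.09% in TAU). In APP this was Jak2, a kinase of the receptor, higher by 0.94 (SE 0.28, limma adjusted p = 0.0326), with 0.56 in TAU (adjusted p = 0.233). In TAU it was Irf8, a transcription factor of myeloid cells, higher by 1.04 (SE 0.26, limma adjusted p = 0.0117), with 0.71 in APP (adjusted p = 0.0977). Between the gated groups neither Jak2 (0.37, limma adjusted p = 0.782) nor Irf8 (-0.34, adjusted p = 0.789) was called. Irf1 (-0.38 and -0.23) and the receptor chain Ifngr1 (-0.64 and -0.6) did not pass in either group, and Ifng was under background in all 6.

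Of the 7 measured endosomal enzymes that prepare invariant chain and antigen, 3 were called higher and 1 lower in APP, against 5.6% and 3.48% of all probe sets. In TAU 5 were called higher and 1 lower, against 5.09% and 3.67%. Ctss and Ifi30 did not pass in APP, and Sppl2a passed in neither group (0.19 in APP and 0.38 in TAU). Ctsz rose by 2.11 in APP and 1.59 in TAU, Ctsb by 1.44 and 1.02, and Ctsl by 1.63 and 0.86. Ctsl was also the one gene of these lists that was higher in APP than in TAU (0.77, SE 0.18, limma adjusted p = 0.0323). Ctss, the protease that trims the invariant chain in macrophages and dendritic cells, was at 16.62 to 17.1 in aged WT, 17.2 to 17.46 in gated APP and 17.12 to 17.72 in gated TAU. It was called in TAU (0.68, SE 0.16, adjusted p = 0.00848) and not in APP (0.47, SE 0.16, adjusted p = 0.0733), and between the gated groups its difference of -0.21 was not called. Ifi30, the thiol reductase that unfolds antigen, was at 13.06 to 13.86 in aged WT, 13.27 to 14.43 in APP and 14.5 to 14.88 in TAU. It rose by 1.31 in TAU (SE 0.23, limma adjusted p = 0.000648), with 0.39 in APP (adjusted p = 0.351) and a difference of -0.92 between the groups (adjusted p = 0.0623). Lgmn, an asparagine endopeptidase, was lower by similar amounts, -0.52 in APP and -0.58 in TAU.

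At the cell surface, Marchf1, a ubiquitin ligase that sends class II and Cd86 to degradation, was lower in both gated groups. It was at 10.32 to 11.1 in aged WT, 9.22 to 10.17 in APP and 9.13 to 10.17 in TAU, without overlap with aged WT. The log2 fold changes were -1.11 in APP (SE 0.31, limma adjusted p = 0.0225) and -1.01 in TAU (SE 0.31, adjusted p = 0.0416). Its relative Marchf8 was not called. Cd83, which protects class II from that ligase, had 2 probe sets, at 1.43 and 0.62 in APP and at 1.48 and 0.71 in TAU. Both were called in TAU and the former in APP, where the latter had an adjusted p of 0.0501 (limma).

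The costimulatory ligands Cd40, Cd80, Cd86 and Icosl were called in neither gated group. Cd274, the PD-1 ligand PD-L1, was at 7.87 to 9.93 in aged WT, 10.6 to 11.72 in gated APP and 10.64 to 11.6 in gated TAU. It rose by 2.33 in APP (SE 0.34, limma adjusted p = 4.57e-05) and by 2.07 in TAU (SE 0.34, adjusted p = 0.00027). Lag3, a receptor that binds class II, was at 11.33 to 12.57 in aged WT, 11.56 to 12.33 in gated APP and 13.33 to 13.93 in gated TAU. It rose in TAU by 1.83 (SE 0.28, adjusted p = 0.000112) and was 0.15 in APP (adjusted p = 0.803). The gated groups differed by -1.68 (SE 0.28, limma adjusted p = 0.00137), and their samples did not overlap.

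**Figure D4:**
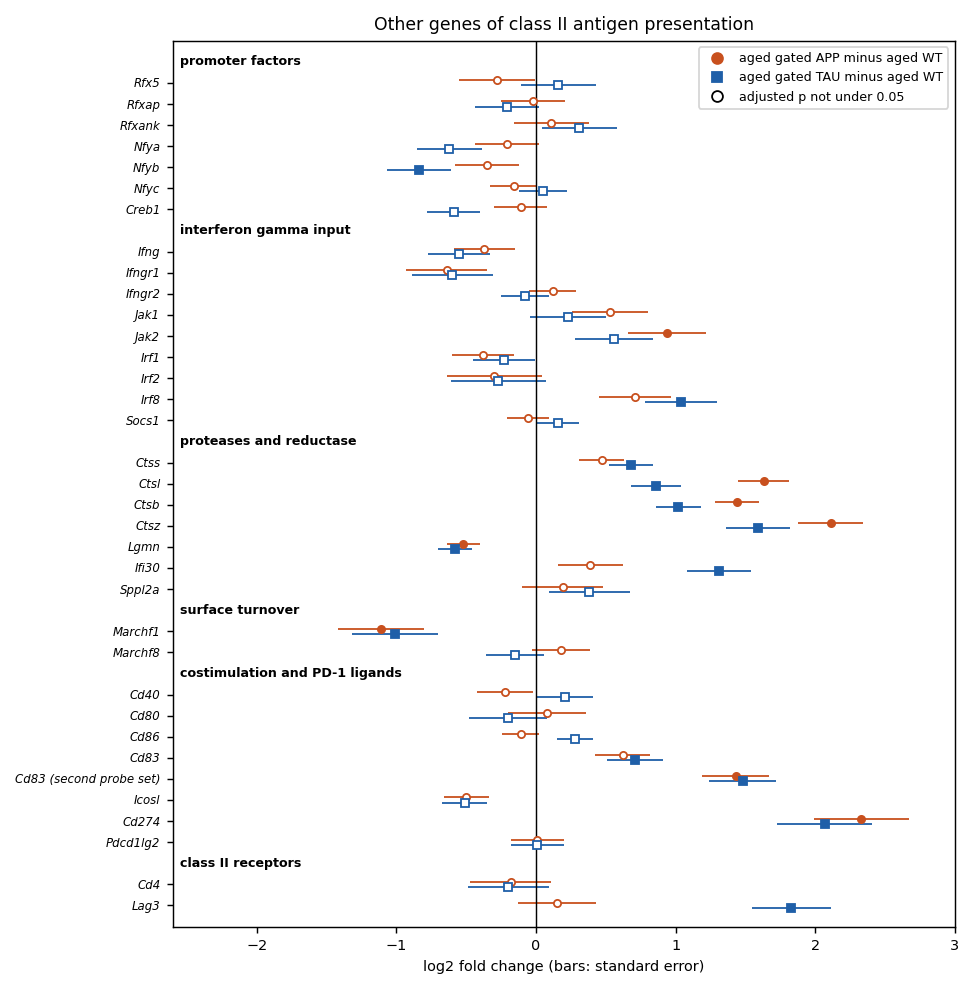
Log2 fold change against aged WT (x axis, bars for the SE) of 35 probe sets of 6 lists of class II pathway genes, with circles for aged gated APP, squares for aged gated TAU and open symbols where the adjusted p was not under 0.05. The symbols of Cd274 (2.33 and 2.07) and of Marchf1 (-1.11 and -1.01) lie close together, while those of Lag3 part at 0.15 in APP and 1.83 in TAU.

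The class II genes other than Ciita lie in 1 region of chromosome 17. With chosen neighbours they made a list of 16 genes from H2-Oa to Btnl2, 15 of them measured. RefSeq gave the order of these genes, and other genes of the region were not listed. The order is H2-Oa, Brd2, H2-DMa, H2-DMb2, H2-DMb1, Psmb9, Tap1, Psmb8, Tap2, H2-Ob, H2-Ab1, H2-Aa, H2-Eb1, H2-Eb2, H2-Ea and Btnl2. H2-Ob and H2-Ab1 follow each other in this list, and between the gated groups the former was higher in APP and the latter in TAU. H2-Eb2, next to H2-Eb1 in the list and with the same X and Y letters in its promoter, was under background in all 6 groups (6.64 in gated APP, 6.78 in gated TAU and 6.81 in aged WT). Of the 4 listed genes between H2-DMb1 and H2-Ob, which serve class I loading, 3 rose in both gated groups (5.6% of all probe sets in APP and 5.09% in TAU). Psmb8, an immunoproteasome subunit, rose by 1.53 in APP and 1.38 in TAU, and Psmb9 by 1.22 and 1.02. Tap1, a chain of the peptide transporter, rose at least 1.57-fold and 1.45-fold. The other chain, Tap2, was under background in both gated groups and in aged WT and was not called (-0.43 and -0.23). Brd2, a chromatin reader, fell by 0.77 and by 0.8. For comparison, the class I heavy chain H2-K1 was 1.74 higher in APP and 1.76 in TAU, and B2m 0.89 and 0.79. The difference between the gated groups was -0.01 for H2-K1 (limma adjusted p = 0.994) and 0.1 for B2m.

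**Figure D5:**
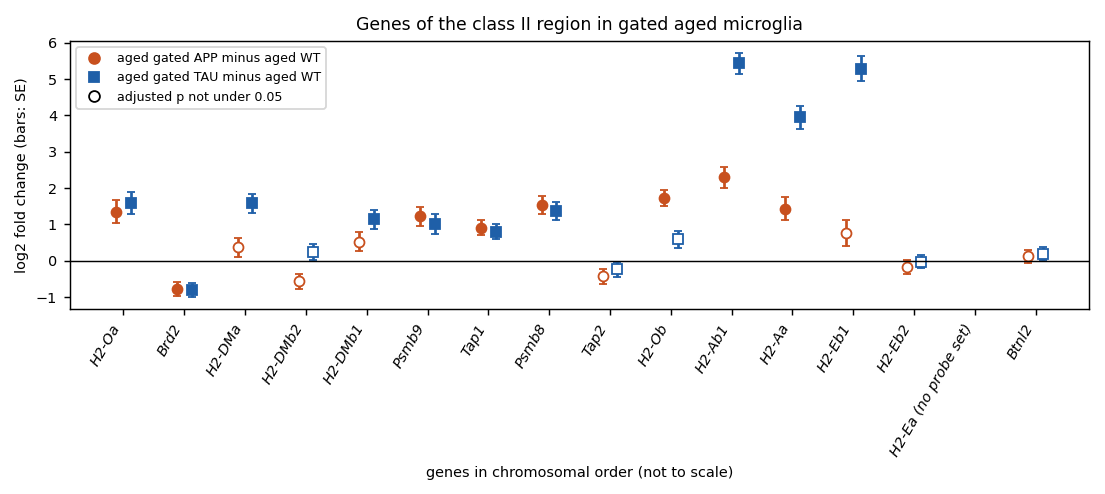
Log2 fold change against aged WT (y axis, bars for the SE) of the listed genes of the class II region in chromosomal order (x axis, not to scale), with circles for aged gated APP, squares for aged gated TAU and open symbols where the adjusted p was not under 0.05. H2-Ab1, H2-Aa and H2-Eb1 stand out in TAU (3.95 to 5.43), and both symbols of Brd2, Psmb9, Tap1 and Psmb8 lie side by side.

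Markers of microglia and of other cell types were read in the same arrays. The summed level of the 9 microglia markers was 126.9 to 130.8 in gated APP, 128.2 to 130.9 in gated TAU and 136.1 to 140.8 in aged WT. Of these markers 5 (APP) and 6 (TAU) were called lower, where 3.48% and 3.67% of all probe sets were. Their part in the class II changes was not tested. Monocyte markers were above background for 0 of 7 measured genes in every group, and T and NK cell markers for 0 of 9. Of 8 B cell markers, Bank1 was above background in every group and Cd79b in young WT and young APP, while Cd79a, Ms4a1 and Pax5 were not in any. Their summed level was 50.2 to 54.5 in gated APP, 52 to 54.9 in gated TAU and 57.4 to 58.8 in aged WT. Bank1 was the 1 B cell marker called, lower by 4.02 in APP (log2 fold change -4.02, limma adjusted p = 5.5e-10) and by 3.89 in TAU (-3.89, adjusted p = 1.47e-09). Over the array 3.48% (APP) and 3.67% (TAU) of probe sets were called lower. Of the 8 measured B cell markers Bank1 changed most against aged WT in both comparisons, so the fall of the summed level is mostly that of Bank1. The aged WT mean of Bank1 was 13.37, while Cd79a (5.84), Ms4a1 (5.31) and Pax5 (6.05) were under background there. The sum is therefore not read as a number of B cells, and the source of the Bank1 signal was not tested. Of 10 dendritic cell markers Ccr7 and Batf3 were above background in all groups and Itgax, which codes for CD11c, in the gated ones. Clec10a was above it in young TAU alone, and Flt3, Zbtb46, Xcr1, Clec9a and Cd209a in none. Itgax was 1.15 lower in gated APP than in gated TAU on the log2 scale (log2 difference -1.15, SE 0.22, limma adjusted p = 0.00711). The summed level of this list was 67.9 to 69 in gated APP, 71.2 to 72.9 in gated TAU and 63.4 to 67.6 in aged WT. Itgax, at background in aged WT, was the 1 marker of this list called higher against it, at least 13.8-fold in APP and 30.6-fold in TAU. Over the array 5.6% (APP) and 5.09% (TAU) of probe sets were called higher. Of the other 9 dendritic cell markers, Cd209a was called lower in APP (-1.04, limma adjusted p = 0.00315) and none in TAU.

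Border macrophages, which bear class II at the brain's surfaces, were represented by 10 markers. Mrc1, Pf4, Ms4a7 and Stab1 were above background in every group, and Cbr2 in all but gated APP, while Cd163, Lyve1, F13a1, Cd209f and Clec4n were at background throughout. The summed level was 77.3 to 79.9 in gated APP, 84 to 92.5 in gated TAU and 83.3 to 85.3 in aged WT. In the young groups it was 85.7 to 90.9 in WT, 89.5 to 92.9 in APP and 87.3 to 93.8 in TAU. Ms4a7 was at 8.09 to 9.27 in aged WT, 9.37 to 10.26 in gated APP and 11.17 to 14.27 in gated TAU, and its TAU rise of 3.56 was called (SE 0.47, limma adjusted p = 1.82e-05). Against gated TAU, gated APP was lower for 3 of the 10 markers, where 0.302% of all probe sets were. These were Ms4a7 (-2.56, limma adjusted p = 0.00436), Stab1 (-1.95, adjusted p = 0.00395) and Mrc1 (-1.68, adjusted p = 0.0243). These 3 markers thus moved with the classical chains between the gated groups, and their part in that difference was not tested. Over all groups the summed level did not follow the classical chains, which were low in the young groups. Within gated TAU, Ms4a7 was highest in replicate 3 (14.27) and lowest in replicate 4 (11.17), where H2-Eb1 was at 14.28 and 13.88 and H2-Ab1 at 13.67 and 13.05. H2-Aa ran the other way in these samples, at 12.61 and 12.95. H2-Eb1 was as high in replicate 1 (14.28) as in replicate 3, and H2-Ab1 was highest in replicate 2 (13.78). Against aged WT the list did not move 1 way. Stab1 was called lower in gated TAU (-1.21, limma adjusted p = 0.0343) and in gated APP (-3.16, adjusted p = 1.22e-06), and Cbr2 was called lower in gated APP (-1.23, adjusted p = 0.0427). Mrc1 (0.52, limma adjusted p = 0.449) and Pf4 (0.16, adjusted p = 0.843) were not called in gated TAU.

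Y-linked genes varied too, Kdm5d from 3.7 to 7.56 in gated APP and from 4.18 to 7.54 in gated TAU. The sample mean of 3 Y-linked genes was 4.14 to 4.62 in young APP and 6.98 to 7.46 in young WT. It was 4.0 to 6.88 in young TAU and 6.06 to 7.31 in aged WT. Line and Y-linked level thus differ together between young APP and young WT and cannot be told apart. With the mean of 3 such genes as a covariate, 4 members were called in APP, 7 in TAU and 5 between the gated groups.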

How the data were processed

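The authors deposited 1 table of log2 values, 1 per probe set and array. Per the submitters' processing notes these are RMA signals from the Transcriptome Analysis Console. Versions, filters and genome build are not given in the sources used here. Per the labels, 5 ng of total RNA was amplified and biotinylated for each array. RMA removes background, equalises the arrays and summarises probes, which compresses differences of dim probe sets. Of 22203 probe sets, 19572 carried a symbol from the platform annotation, and 2631 had none.

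All 23 samples entered 1 limma 3.58.1 model (R 4.3.3) with a mean per group, eBayes without trend, 17 residual and 5.11 prior degrees of freedom. Tests were two-sided with Benjamini-Hochberg adjustment over all probe sets, called at adjusted p under 0.05. The script was tested on simulated data. Precision is set by the number of arrays, and the median SE of a log2 fold change was 0.226, and 0.244 with the 3 young APP samples. The 9 members and all lists were chosen with earlier results of these data known. Every member was named, with pathway genes that were called against aged WT, Rfx5, Irf1 and Ifngr1, and the 5 genes most correlated with each classical chain. A few others were named after their values were seen (Ctss in APP, Sppl2a, Tap2, Marchf8, the costimulatory ligands, H2-Eb2, Ifng). pandas 2.3.3 and numpy 2.4.6 served for description.

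Replicate numbers were checked for pairing by correlating deviations from group means. Same-numbered samples of aged gated APP and aged gated TAU correlated at 0.18 to 0.42, each over 0.1. These numbers may therefore pair the samples, although the labels say nothing of a shared batch. The main fit did not use this pairing, so its p-values between the gated groups are unpaired. No other of the 15 pairs of groups met that rule. The blocked fit is given with the alternatives: array centring, quantile normalization, an intensity trend, array weights, only the groups compared, dim probe sets left out, each sample left out, aged WT without replicates 2 and 4, and a Y-linked covariate.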

Additional observations from a re-analysis of the deposited data

Results flagged for a closer look

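Between the gated groups, which differ in mouse line and, by their age field, in age, 5 members differed. The log2 difference of aged gated APP minus aged gated TAU was -2.52 for H2-Aa, -3.13 for H2-Ab1, -4.53 for H2-Eb1 and -1.21 for H2-DMa, all lower in APP, and 1.14 for H2-Ob, higher in APP. The change with age and gate exceeded the age change of WT in APP by 2.83 for H2-Ab1 and by 2.07 for H2-Ob. In TAU it exceeded the WT change by 4.14 for H2-Aa, 5.78 for H2-Ab1, 5.99 for H2-Eb1 and 1.97 for H2-DMa. No single sample stood out by Dixon's criterion in any of the 45 member groups of 4 samples, where about 1 in 20 would by chance.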

How the results depend on the processing

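In aged gated TAU and in aged gated APP against aged WT, and between the gated groups, the calls of the classical chains were kept under every alternative run, except that H2-Eb1 in APP gained one. Leaving out 1 sample at a time, 4 to 5 members were called in APP and 6 in TAU against aged WT, 3 to 5 between the gated groups, 3 to 5 in APP against young APP, 6 to 7 in TAU against young TAU, and 2 to 3 (APP) and 4 to 6 (TAU) where the age change was set against that of WT. Array weights gave 4 members for that APP result, against 2. Signs turned for values near 0: Ciita in APP against aged WT, -0.13, lay between -0.29 and 0.01 with 1 sample left out and at 0.15 without aged WT replicates 2 and 4, a setting that also took H2-DMa from 0.37 to -0.04. Ciita in TAU, 0.14, lay between -0.03 (without aged WT replicate 3) and 0.27 with 1 sample left out, and at 0.42 without aged WT replicates 2 and 4. The cause of these changes was not tested. Ciita has no value with dim probe sets left out.

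The replicate block changed no member call in any comparison: it gave 4 members in APP and 6 in TAU against aged WT and 5 between the gated groups. Over all groups, same-numbered samples correlated at -0.52 to 0.55. Counts over the array moved more: 2015 probe sets were called in APP against aged WT (1264 without aged WT replicates 2 and 4, 1326 with only the groups compared, 2807 without aged WT replicate 3), 1946 in TAU (1227, 1218 and 2526), 206 between the gated groups (120 to 232), and 8 with WT age (0 to 88). Young APP against young WT gave 0, and 93 with only the groups compared. Signal near background limits H2-Ab1 in ungated samples and Ciita everywhere.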
